A study of Mus musculus with 2 samples.

Results

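The 9 genes described here encode the 6 subunits of the MCM helicase (Mcm2, Mcm3, Mcm4, Mcm5, Mcm6 and Mcm7) and 3 E2F transcription factors (E2f1, E2f2 and E2f4). They were chosen by name, 9 of the 21938 protein-coding genes of the annotation, and CTCF binding was read within each gene and 20 kb on either side. That took in 47 of the 50909 peaks in the authors' optimal list, 18 around the MCM genes and 29 around the E2F genes. CTCF, a DNA-binding protein with zinc fingers, marks insulators and the ends of many chromatin loops. It was mapped by chromatin immunoprecipitation with sequencing (ChIP-seq) in the livers of B6NCrl embryos of both sexes at embryonic day 14.5. The tissue was crushed and pooled over several dissections, according to the labels. The 2 libraries form 1 group with no treatment, no altered allele and no second tissue. They are numbered as biological replicates but carry the same biosample, so their spread was read as that of library making and sequencing. Occupancy in fewer cells and weaker occupancy in each cell cannot be told apart in such a pool, and CTCF peaks hold no expression from which the tissue label could be checked.

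MCM2 to MCM7 form the ring that unwinds DNA ahead of the replication fork. In G1 the origin recognition complex, CDC6 and CDT1 load the ring onto DNA, and CDC45 and GINS later turn it into the active helicase. E2F1 and E2F2 activate genes needed for S phase, E2F4 mostly represses them together with pocket proteins, and MCM genes are among the classical E2F targets. The fetal liver at this age is a site of rapid red cell production, where E2F2 and E2F4 are known for roles in erythroid maturation.

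A promoter peak here is a summit within 1 kb of any annotated transcript start of the gene (GENCODE vM21 on mm10). Such a peak was found at 6 of the 9 genes, against 35.2% of protein-coding genes. It was found at 4 of the 6 MCM genes (Mcm2, Mcm5, Mcm6 and Mcm7) and at 2 of the 3 E2F genes (E2f1 and E2f2). Mcm3, Mcm4 and E2f4 had none, and for these the peak nearest to a start was described instead. When the outermost start of each gene was the sole one used, 5 of the 9 genes had a promoter peak, against 27.7% of protein-coding genes, and E2f2 dropped out. With 9 genes and 1 tissue no test was made, and the difference from the background amounts to a few genes.

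Peak signal is the value the caller wrote, in units that are not stated, and was compared only within a list. To set the replicates side by side, each replicate's signals were scaled by the median over its 50909 strongest peaks, and 1 on this scale of relative signal is a middling strong peak. On this scale the promoter peaks fell far apart. E2f2, Mcm5 and Mcm2 had relative signals over 5 in both replicates. Mcm7 had 1.97 in replicate 1 and 0.851 in replicate 2, and E2f1 and Mcm6 were below 1 in both.

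Sequences at the summits are given first for the strong promoter peaks. Each line holds the 30 bases around the best placement of the 14-letter core CTCF motif within 50 bp of the summit, read from mm10, 5′ to 3′ on the strand of the motif. Capitals mark the 14 letters of the placement. A motif match is a placement with at most 2 mismatches. The first pair below are the strongest promoter peaks of Mcm2 and E2f2, which have a match. The next is the strong Mcm5 peak, which lacks one, and the last is the nearest peak of Mcm3. A weaker promoter peak of E2f2 also has a match and is not shown.
Mcm2 (chr6:88893747-88893776, minus strand, 0 mismatches): atataccaCCAGCAGGTGGCGCtgtggatg
E2f2 (chr4:136180135-136180164, minus strand, 2 mismatches): aggtctctCCGCTAGGGTGCGCtgtcgaga
Mcm5 (chr8:75108712-75108741, minus strand, 3 mismatches): gctccagcCCGGCAGGAGGTGCcagagtgc
Mcm3 (chr1:20801895-20801924, minus strand, 2 mismatches): tcaagtcaTCACAAGGTGGCAGcaggctgc
Among the 6 strongest promoter peaks of these genes 2 had a match (Mcm2 and E2f2), against 48% of all strongest promoter peaks. The best placements at Mcm5, Mcm6, Mcm7 and E2f1 had 3 mismatches each.

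**Figure D1:**
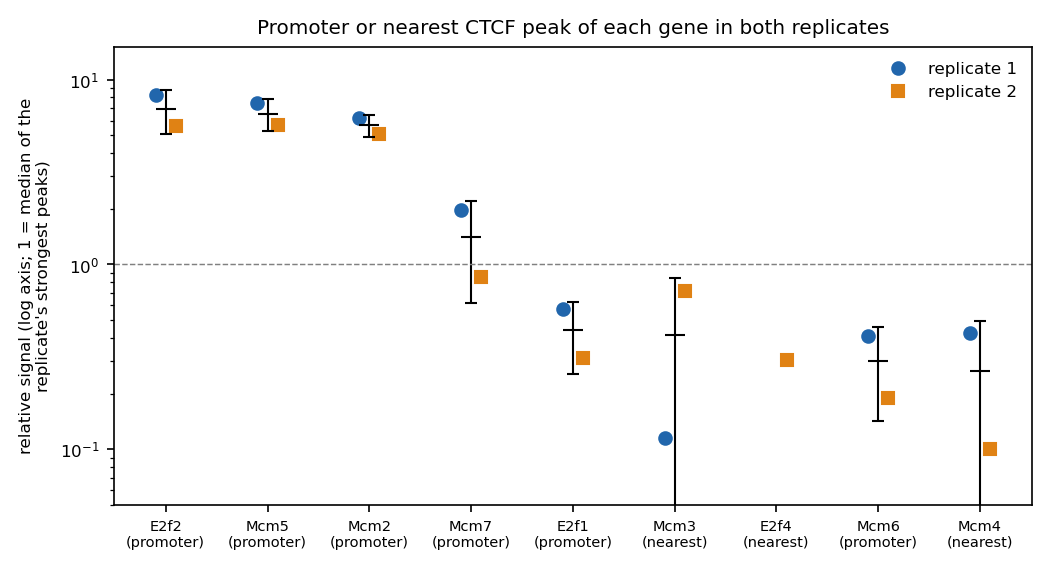
Relative signal (log axis, 1 is the median of the replicate's 50909 strongest peaks) of the promoter or nearest peak of each of the 9 genes, with replicate 1 as circles, replicate 2 as squares, and the mean ± SD (n = 2) as bars where both replicates have a peak. E2f2, Mcm5 and Mcm2 stand above 5 in both replicates, and E2f4 has a value in replicate 2 alone.

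Mcm2 encodes the subunit whose tail also binds histones H3 and H4. Its gene spans chr6:88883474-88898780 on the minus strand and held 7 peaks. The strongest peak at an annotated start, chr6:88893606-88893887, had a signal of 376 and ranked 2502 in the optimal list. Its relative signal was 6.21 in replicate 1 and 5.11 in replicate 2, 5.66 ± 0.781 (SD, n = 2). The summit lay 30 bp upstream of the start of a retained-intron transcript, in an intron 5023 bp inside the gene, so it was not at the start of the protein-coding transcript. The peak next to the 5′ end of Mcm2, chr6:88898406-88898721, was far lower, with a signal of 36.1. It had a relative signal of 0.921 in replicate 1, no peak within 100 bp in replicate 2, and no counterpart in the conservative list. Read from the outermost start, Mcm2 thus had a promoter peak that 1 of the 2 replicates showed.

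Mcm5, a subunit at the gate through which the ring is thought to open on DNA, lies at chr8:75109569-75128439 on the plus strand. Its promoter peak, chr8:75108581-75108864, had a signal of 437 and ranked 1200. The relative signal was 7.45 and 5.65 in replicates 1 and 2, 6.55 ± 1.27 (SD, n = 2). The summit was 841 bp upstream of the gene's 5′ end in sequence outside any annotated gene. This was the strongest of the 21 peaks without a motif match in the 9 windows, and its best placement, with 3 mismatches, was centred 2 bp from the summit. A promoter window of 500 bp leaves it out, and leaves out E2f2 as well. With that window 4 of the 9 genes had a promoter peak, against 28.7% of protein-coding genes.

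E2f2 encodes an activating E2F that is abundant in erythroid cells. It lies at chr4:136172394-136196057 on the plus strand. Its strongest peak at a start, chr4:136180002-136180314, had a signal of 457 and ranked 882. Relative signals were 8.25 in replicate 1 and 5.64 in replicate 2, 6.94 ± 1.84 (SD, n = 2). Its summit lay in an intron 7754 bp inside the gene, 635 bp upstream of the start of a noncoding processed transcript. A weaker peak 789 bp downstream of that start had a signal of 60.7. No optimal summit lay within 1 kb of the 5′ end of E2f2.

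Mcm7, at chr5:138164583-138172422 on the minus strand, hosts the miR-106b, miR-93 and miR-25 genes in an intron. It shares its promoter region with Ap4m1, which encodes a subunit of the AP-4 adaptor complex. The stronger of its 2 promoter peaks, chr5:138171049-138171364, lay in a 5′ UTR 34 bp downstream of a start, with a signal of 90.2 and rank 21014. Its relative signal was 1.97 in replicate 1 and 0.851 in replicate 2, 1.41 ± 0.789 (SD, n = 2). The other, 256 bp inside the gene from its 5′ end, had a signal of 42.3.

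E2f1, whose product is an activating E2F held in check by RB, lies at chr2:154559407-154569892 on the minus strand. Its promoter peak, chr2:154569964-154570279, was 230 bp upstream of the nearest start with a signal of 30.9 and rank 38727. Relative signals were 0.573 and 0.311 in replicates 1 and 2, 0.442 ± 0.185 (SD, n = 2). Mcm6, at chr1:128331590-128359664 on the minus strand, had the weakest promoter peak of the 6. That peak, chr1:128359219-128359534, lay 270 bp downstream of a start in an intron, with a signal of 20.4 and rank 45879. Its relative signal was 0.411 in replicate 1 and 0.188 in replicate 2, 0.300 ± 0.157 (SD, n = 2). In replicate 2 it ranked 63929, outside the 50909 strongest peaks.

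Set against the strongest promoter peaks of the 7727 genes that have one, E2f2 was higher than 96.4%, Mcm5 than 95.4% and Mcm2 than 91.7%. Mcm7 was higher than 57.0%, E2f1 than 24.0% and Mcm6 than 9.98%. Neighbours in this order did not all have separate replicate ranges. The replicate ranges of E2f2 and Mcm5 overlapped, as did those of Mcm5 and Mcm2, and those of E2f1 and Mcm6. Mcm2 did not overlap Mcm7, and Mcm7 did not overlap E2f1. Compared within each replicate, Mcm5 was above Mcm2 and E2f1 above Mcm6 in both. E2f2 was above Mcm5 in replicate 1 alone. With 2 values against 2, taken as unpaired, an exact permutation test cannot go below a 2-sided p of 0.333, so none was made.

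For the genes without a promoter peak the optimal list held little near the start. Mcm3, at chr1:20802968-20820312 on the minus strand, had 1 peak in its window, chr1:20801761-20802076, just beyond its 3′ end and 18393 bp from its 5′ end. Its summit was 1802 bp downstream of the nearest annotated start, that of a retained-intron transcript. The peak had a signal of 30.3. Its relative signal was 0.115 in replicate 1, where it ranked 245119, and 0.716 in replicate 2, where it ranked 30683, giving 0.416 ± 0.425 (SD, n = 2). Of the 8 chosen peaks with a value in both replicates, this is the one whose ranks differed most. Mcm4, at chr16:15623897-15637400 on the minus strand, had 1 peak in its window, chr16:15608912-15609227, next to a start of Gm7748 and 28330 bp from the 5′ end of Mcm4. Its signal was 17.5, with relative signals of 0.428 in replicate 1 and 0.0999 in replicate 2, 0.264 ± 0.232 (SD, n = 2). E2f4 lies at chr8:105297663-105305370 on the plus strand. Its nearest peak, chr8:105299231-105299546, was in an intron 1672 bp downstream of a start with a signal of 16.1. It had no peak in replicate 1 and a relative signal of 0.304 in replicate 2. Its best motif placement had 6 mismatches.

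Peaks that are not in the optimal list were present at those 3 promoters in other lists. The conservative list, which overlaps the optimal list without lying inside it, held a peak at Mcm4 (chr16:15637765-15638080, signal 12.4) 523 bp upstream of its nearest start. That peak fell in a coding exon of Prkdc, the catalytic subunit of DNA-dependent protein kinase, which is transcribed the other way from the same promoter region. The same list held a peak in the 5′ UTR of E2f4 (chr8:105297531-105297846, signal 18.4), 26 bp downstream of a start. With that list 8 of the 9 genes had a promoter peak, against 34.4% of protein-coding genes. The Mcm4 peak ranked 48154 of 49129 there, and 58240 and 60810 in replicates 1 and 2. The E2f4 peak ranked 45979 there and 73778 in replicate 1, with no peak within 100 bp in replicate 2. Neither was thus among the 50909 strongest peaks of a replicate. At Mcm3 a promoter peak appeared only in the pooled list of 300000 and in the list of replicate 1, with a signal of 5.74 and rank 239936 in the pooled list. At that depth of list 71.0% of protein-coding genes had a promoter peak.

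Replicate support was asked of each promoter or nearest peak, as a peak within 100 bp among the 50909 strongest of both replicates. It was met by 5 of the 9 genes. These are 5 of the 6 with a promoter peak, all but Mcm6, against 77.2% of all strongest promoter peaks. Over the 47 peaks in the windows 35 had such support, against 76.7% of all optimal peaks, and 41 were also in the conservative list, against 86.4% of all optimal peaks. These shares lie near their backgrounds.

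**Figure D2:**
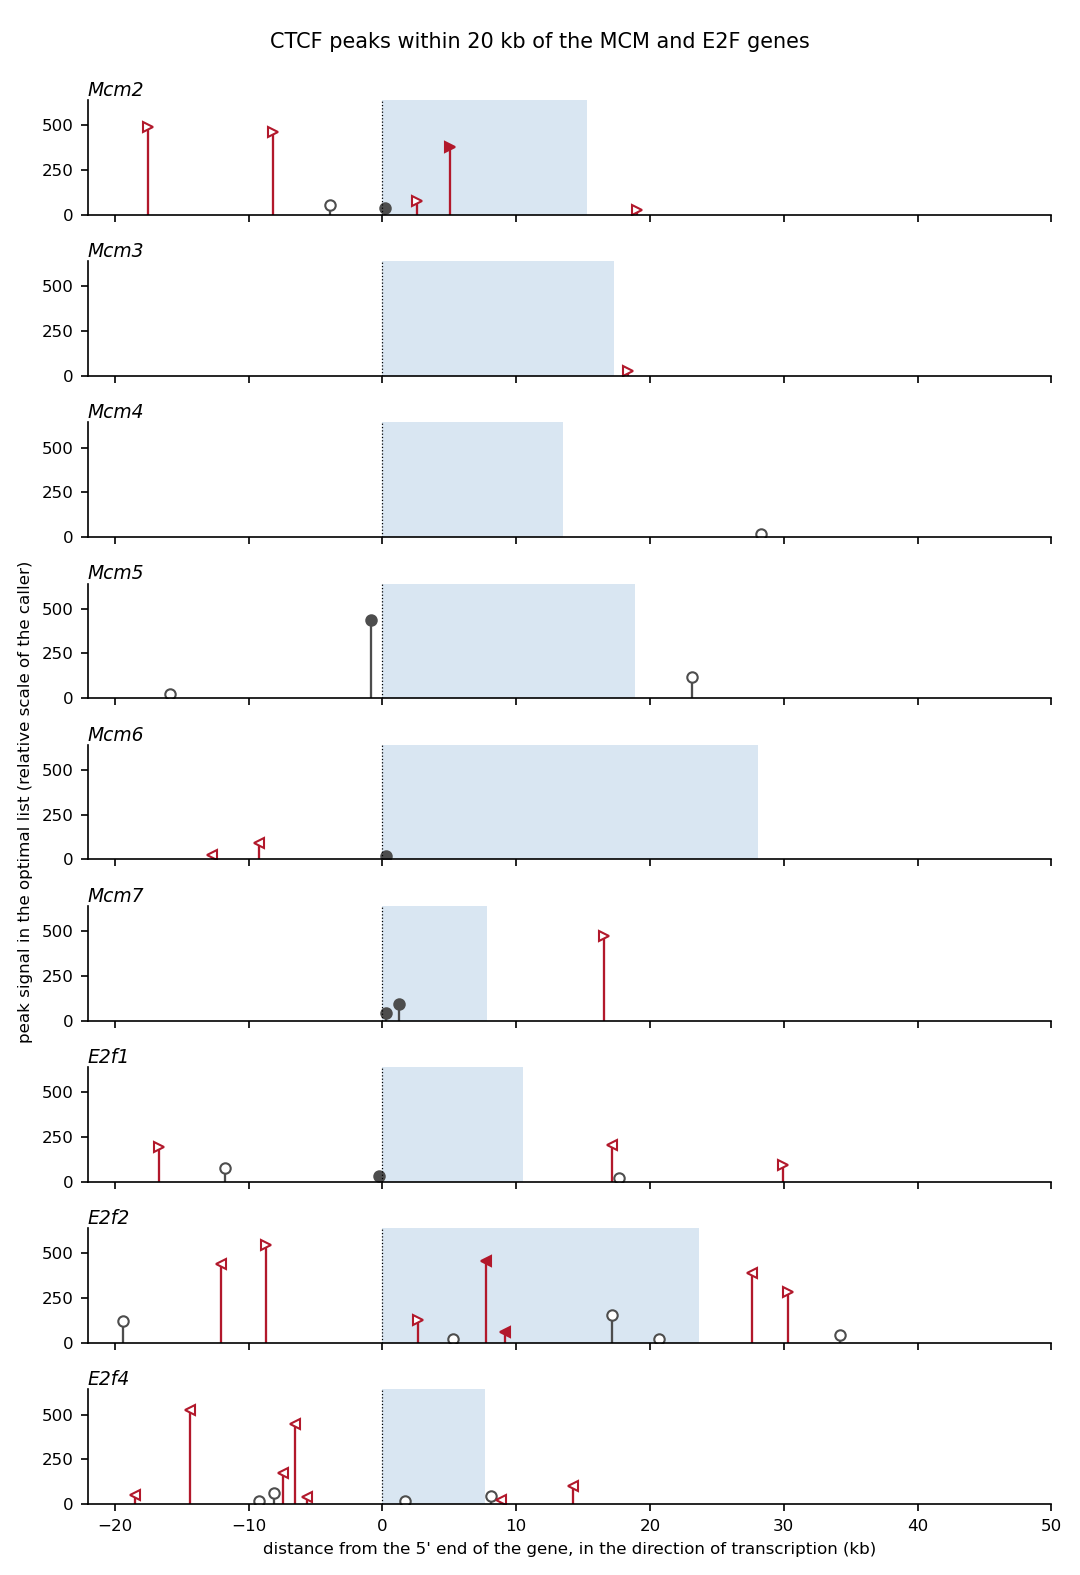
Signal of the 47 optimal peaks (vertical axis, the caller's relative scale) by distance from the 5′ end of each gene in the direction of transcription (kb), with the gene body shaded, where triangles are peaks with a motif match and point along the motif strand relative to the gene, circles lack a match, and filled symbols are promoter peaks. The peaks of E2f4 with signals of 525, 447 and 174 all stand upstream of the gene.

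The windows differed widely in how many peaks they held. E2f2 had 12 and E2f4 had 11, more than 97.9% and 97.1% of protein-coding genes. Mcm2 had 7 and E2f1 had 6, while Mcm5, Mcm6 and Mcm7 had 3 each and Mcm3 and Mcm4 had 1 each. The median over the 9 genes was 3, the same as the median of 3 over all protein-coding genes, of which 78.7% had any summit in the gene plus 20 kb. Windows differ in length, and per Mb of window the 9 genes had a median of 62.7 peaks, against 37.6. Gene density differed as well. The E2f4 and Mcm7 windows each touch 6 protein-coding genes and the E2f1 window 5, whereas the E2f2 window touches 2, the median. Its part in the peak counts was not tested.

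Tall peaks stood both at promoters and away from them. Of the 11 peaks ranked 5090 or better among the 50909 of the optimal list, 3 were among the 9 promoter peaks and 8 among the 38 others. The 3 were the peaks of Mcm2, Mcm5 and E2f2 given above. All 11 apart from the Mcm5 promoter peak had a motif match. The windows of E2f2, E2f4, Mcm2 and Mcm7 held the other 8, and the sequences of 6 of them follow, chosen as the tallest.
E2f2, upstream (chr4:136163665-136163694, plus strand, 1 mismatch): gcagctgcCCTCTAGATGGCGCccttcccc
E2f4, upstream (chr8:105283281-105283310, minus strand, 1 mismatch): tacaccatCCACCAGGCGGCGCacatgtcc
Mcm2, upstream (chr6:88916312-88916341, minus strand, 0 mismatches): tgtaatgaCCACCAGAGGGCAGcaaaggat
Mcm7, beyond the 3′ end (chr5:138155880-138155909, minus strand, 1 mismatch): caacctggCCAGCAAGTGGCGCagtctggt
Mcm2, in Tpra1 (chr6:88906947-88906976, minus strand, 1 mismatch): gccgttgaCCACAAGATGGCAGtagaaaga
E2f4, in Exoc3l (chr8:105291115-105291144, minus strand, 1 mismatch): acactgtaCCACAAGGTGGCGCcagagtgg

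The tallest peak of all 9 windows stood 8707 bp upstream of E2f2, in sequence outside genes, with a signal of 547 and rank 167. Its relative signal was 9.92 in replicate 1 and 6.65 in replicate 2, 8.28 ± 2.31 (SD, n = 2). Another stood 12086 bp upstream of E2f2 with a signal of 440 and 6.73 ± 1.58 (SD, n = 2). Beyond the 3′ end of E2f2 a pair of peaks, 27659 and 30296 bp from its 5′ end, had signals of 391 and 286. Strong peaks therefore stood on both sides of E2f2 as well as in its intron.

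E2f4 had no optimal peak at its promoter but some of the tallest peaks upstream of it. The tallest, 14376 bp upstream in a coding exon of 4931428F04Rik, had a signal of 525 and rank 270, with relative signals of 9.42 and 6.38, 7.90 ± 2.14 (SD, n = 2). A peak 6539 bp upstream in an intron of Exoc3l had a signal of 447, with 8.25 and 5.45, 6.85 ± 1.98 (SD, n = 2). One 7402 bp upstream, in a coding exon of Exoc3l, had a signal of 174 and 2.60 ± 1.33 (SD, n = 2). Within the body of E2f4 there was 1 optimal peak, the weak intronic one given above.

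Around Mcm2 the peaks 17529 and 8181 bp upstream had signals of 491 and 463. The farther one, outside genes, had a relative signal of 7.41 ± 1.64 (SD, n = 2), and the nearer one, in an intron of Tpra1, had 7.01 ± 2.17 (SD, n = 2). Their replicate ranges overlapped, but the farther one was the higher within each replicate. The values were 8.57 against 8.54 in replicate 1 and 6.25 against 5.48 in replicate 2. Mcm7 had a single peak of this height, 16535 bp from its 5′ end and next to a start of the zinc finger gene Zfp113, with a signal of 471 and 7.12 ± 2.19 (SD, n = 2). E2f1 had none. Its highest were beyond its 3′ end, 17163 bp from the 5′ end, in a coding exon of Actl10 (signal 204, 3.12 ± 1.45, SD, n = 2), and 16705 bp upstream in the 3′ UTR of Pxmp4 (signal 194, 2.95 ± 0.136, SD, n = 2). Mcm5 had a weak peak of signal 22.2 in the 5′ UTR of Hmox1, the haem oxygenase gene upstream of it, with 0.305 ± 0.0395 (SD, n = 2). The strongest peak around Mcm6, in an intron of the aspartyl-tRNA synthetase gene Dars, had a signal of 93.8 and 1.38 ± 0.247 (SD, n = 2).

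Peaks with a motif match were taller at the median than those without. A match was found in 26 of the 47 peaks, against 70.8% of all optimal peaks. Peaks with a match had a median signal of 184 (22.4 to 547), and the 21 without one had a median of 42.3 (16.1 to 437). Of the 25 peaks at or above the optimal list's median signal of 67.9, 19 had a match, and of the 22 below it 7 did. Of the 9 promoter peaks, counting those that are not the strongest of their gene, 3 had a match, and of the 38 others 23 did. Over all strongest promoter peaks of protein-coding genes the median signal was 141 with a match and 42.8 without. A match was found at 48% of those promoter peaks, beside 70.8% of all optimal peaks. Differences in the same directions thus also exist over all genes. The sets are not alike, since these medians cover strongest promoter peaks alone and the 70.8% includes promoter peaks.

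The motif is not symmetric, and CTCF sites at both ends of a loop are known to point mostly toward each other, so the strand of each match was recorded. All 5 matches around Mcm2 were on the minus strand, which is the strand of Mcm2, and all 7 around E2f4 were on the minus strand, opposite to E2f4. Both matches around Mcm6 were on the plus strand. Around E2f2 the 7 matches were mixed, 3 on the plus and 4 on the minus strand, and around E2f1 there was 1 on the plus strand between 2 on the minus strand. Over the 26 matches 12 were on the strand of the gene and 14 on the other, so no common direction relative to transcription was seen.

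Sites in repeats shared a stretch of letters. In the 7 of the 47 peaks whose best placement was wholly in repeat-masked sequence, 6 contained AGAAGAGGG, and none of the other 40 did. The letters were chosen after the sequences were seen. Over all optimal peaks with the best placement wholly repeat-masked 62.4% contained them (6682 of 10712), against 0.244% (98 of 40176) of the others. The following show the stretch in 2 peaks of Mcm2, whose 14 letters are identical, and in 1 peak each of E2f4 and E2f2.
Mcm2, beyond the 3′ end (chr6:88879666-88879695, minus strand, 2 mismatches): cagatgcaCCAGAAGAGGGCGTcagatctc
Mcm2, intron (chr6:88896138-88896167, minus strand, 2 mismatches): tgtagagaCCAGAAGAGGGCGTcagacccc
E2f4, upstream (chr8:105292033-105292062, minus strand, 2 mismatches): tcaacccaCCAGAAGAGGGCATcagatccc
E2f2, intron (chr4:136189558-136189587, minus strand, 3 mismatches): atcaagagTCAGAAGAGGGCGTcagatccc
With the same 14 letters the first peak of Mcm2 had a signal of 26.9 and 0.400 ± 0.168 (SD, n = 2), and the intronic one had 75.4 and 1.12 ± 0.373 (SD, n = 2). Their replicate ranges, 0.281 to 0.518 and 0.855 to 1.38, did not overlap. The E2f2 peak, with 1 mismatch more, had a signal of 154 and 2.31 ± 0.310 (SD, n = 2). Letters outside the placement were not compared. Summits on repeat-masked sequence made up 9 of the 47 peaks, against 22.5% of all optimal summits, and 0 of the 9 promoter peaks.

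The promoters of several of these genes hold E2F sites, which can be set beside the CTCF summits. RefSeq promoters (GRCm38.p6, 250 bases before to 50 after each start) were matched by symbol for 7 of the 9 genes, in 9 windows. Mcm4 and E2f4 had no entry. An E2F site was taken as TTTCCCGC, TTTGGCGC, TTTCGCGC or TTTGCCGC on either strand, and neighbouring sites can overlap. Such letters stood in 5 of the 9 windows, those of Mcm3, Mcm5, Mcm6, Mcm7 and E2f2, and in 2.26% of all 32851 promoters of that length. Some of these sites are written out here on the strand of the gene with the E2F letters in capitals.
Mcm3 (chr1:20820275-20820304, minus strand): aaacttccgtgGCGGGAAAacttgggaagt
Mcm5 (chr8:75109345-75109374, plus strand): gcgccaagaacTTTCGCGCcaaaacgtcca
Mcm6 (chr1:128359797-128359826, minus strand): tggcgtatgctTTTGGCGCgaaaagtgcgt
Mcm6 (chr1:128359734-128359763, minus strand): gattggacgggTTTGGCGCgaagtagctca
Mcm7 (chr5:138172030-138172059, minus strand): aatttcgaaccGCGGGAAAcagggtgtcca
E2f2 (chr4:136172302-136172323, plus strand): gcggcatatagTTTGGCGCtaa
At Mcm5 and Mcm6 the site shown first overlaps a second one on the other strand. A CTCF summit was not on top of any of these stretches. Measured from the edge of the printed stretch, the nearest optimal summit lay 107 bp from that of Mcm7, 357 bp from the nearer Mcm6 one, 617 bp from that of Mcm5, 2716 bp from that of E2f2 and 18356 bp from that of Mcm3. The member promoters ranged from 48.7% to 77.3% in GC, against a median of 52.7% over all promoters, and from 7 to 48 CpG dinucleotides, against a median of 7. The E2f1 window, chr2:154569377-154569676, had the highest values of both and held none of the letters searched. That window lies inside the gene, downstream of the GENCODE starts used for the CTCF peaks (chr2:154569720 and chr2:154569892). Sequence upstream of those starts was therefore not searched for E2F sites.

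The replicates were not even across these peaks. Where both replicates had a peak, the median log2 ratio of relative signal (replicate 1 over replicate 2) was 0.47 for the 26 peaks with a match, of which 19 were higher in replicate 1. For the 16 without a match it was 0.72, with 14 higher in replicate 1. Over all optimal peaks the medians were 0.22 with a match and 0.51 without, and 0.63 for the strongest promoter peaks of protein-coding genes. For the member promoter peaks it was 0.59, with 7 of 8 higher in replicate 1. A shift toward replicate 1 was thus present across the whole list, and its part in the promoter values was not tested.

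**Figure D3:**
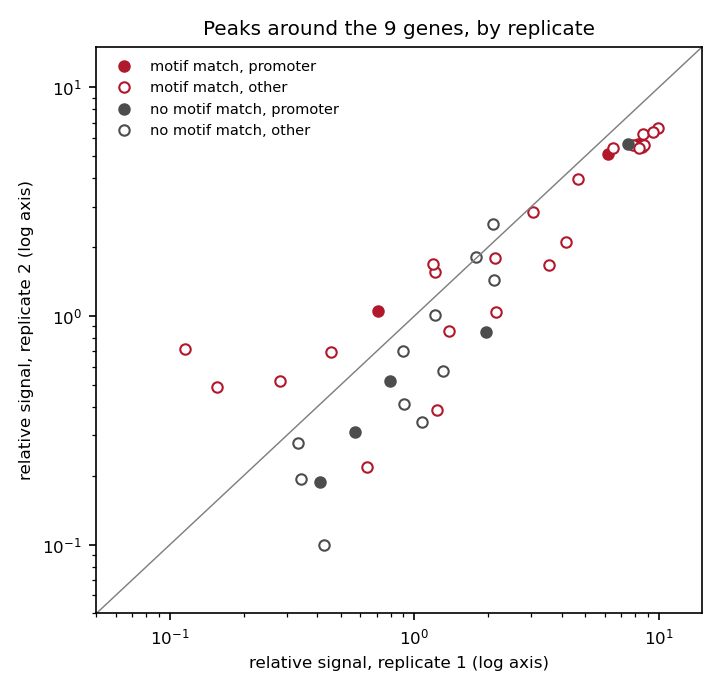
Relative signal in replicate 1 (horizontal, log axis) and replicate 2 (vertical, log axis) of the 42 peaks around the 9 genes with a peak in both replicates, coloured by motif match and filled for promoter peaks; the line marks equal values. Of the 8 promoter peaks 7 lie below the line, and peaks without a match lie below it in 14 of 16 cases.

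Genes that work with the helicase and with E2F were read in the same way, as 3 lists. Of 24 genes of licensing and origin firing, 16 had a promoter peak (66.7%). Of 27 genes of the replication fork 15 did (55.6%), and of 16 other E2F family members, partners and pocket proteins 6 did (37.5%). Together that is 37 of 67 genes, or 55.2%, beside 35.2% of protein-coding genes, and the E2F list alone lay near that share. With peaks at or above the median signal the joint count was 14 of 67, or 20.9%, beside 18.0%. The difference was thus smaller among stronger peaks. The lists were chosen with earlier results of these data known, and the difference was not tested. The median signal of the promoter peaks in the 3 lists was 34.6, 71.1 and 52.1, against 70.2 over all genes with a promoter peak. Over the 6 members it was 233, a value near none of them. It falls between E2f2, Mcm5 and Mcm2 (376 to 457) and Mcm7, E2f1 and Mcm6 (20.4 to 90.2). In the 3 lists a motif match was found at 5 of 16, 7 of 15 and 1 of 6 promoter peaks.

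In the licensing list the strongest were Gins4, Mcm9 and Cdt1. Gins4, a GINS subunit of the active helicase, had a signal of 664, rank 12 in the whole optimal list, with relative signals of 10.6 and 9.11, 9.86 ± 1.06 (SD, n = 2). Both of its values were above those of every member promoter peak. Mcm9, an MCM relative that works in recombination repair rather than in the ring, had a signal of 241 and 3.60 ± 0.618 (SD, n = 2). Cdt1, the loader of the ring, had 127 and 1.91 ± 0.623 (SD, n = 2). At the fork, Pold1, the catalytic subunit of DNA polymerase delta, had 474 and 7.09 ± 0.814 (SD, n = 2). The clamp loader genes Rfc3 and Rfc2 had 312 and 305, with 4.82 ± 1.47 and 4.59 ± 1.48 (SD, n = 2). Their replicate ranges overlap, though Rfc3 was the higher within each replicate. In the E2F list the highest was Tfdp2, a dimerisation partner of E2F proteins, with 117 and 1.71 ± 0.710 (SD, n = 2). E2f5, the closest relative of E2f4, had 63.0 and 0.979 ± 0.362 (SD, n = 2), and the pocket protein gene Rbl1 had 54.5 and 0.878 ± 0.194 (SD, n = 2). The replicate range of Tfdp2, 1.20 to 2.21, overlapped that of E2f5, 0.723 to 1.24, though Tfdp2 was the higher within each replicate.

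**Figure D4:**
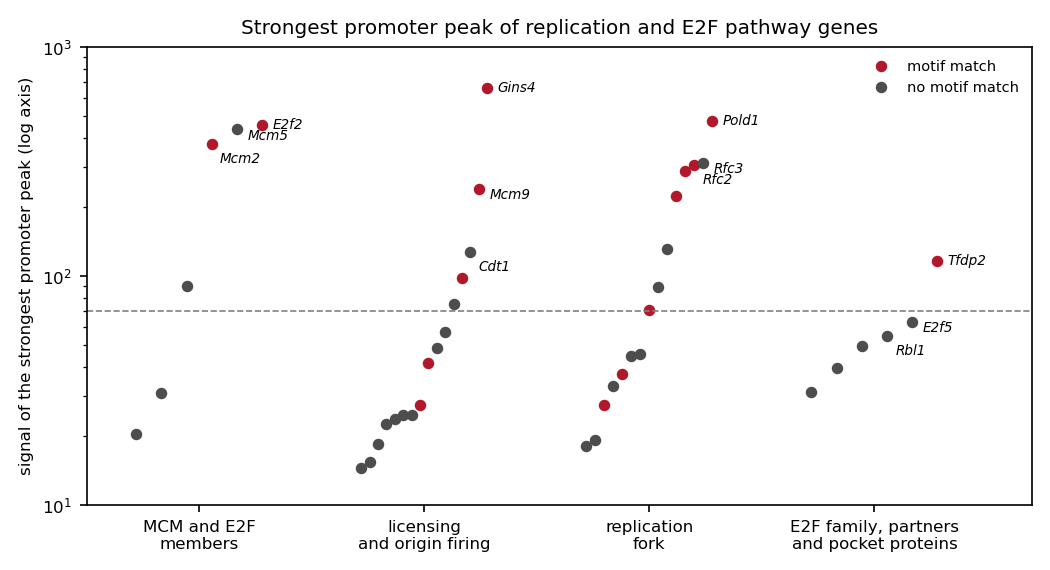
Signal of the strongest promoter peak (log axis, the caller's relative scale) of each gene that has one, for the 6 members and the 3 lists of pathway genes, coloured by motif match, with the 3 strongest of each named. The dashed line is the median of 70.2 over protein-coding genes with a promoter peak, and Gins4 at 664 stands above all others.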

How the data were processed

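CTCF ChIP-seq peaks of 2 libraries from embryonic day 14.5 liver were analysed. Per the deposited text files, the authors deposited narrowPeak lists on mm10 called against a control: 300000 peaks for each replicate and for both pooled, and 50909 (optimal) and 49129 (conservative) after thresholding by the irreproducible discovery rate. For the peak caller, name and version are not given in the sources used here, and read depth is unknown. The deposited signal is a relative value of the caller. Pooled and thresholded lists are single values, so errors come from the replicates' own lists. Other deposited columns give the summit as an offset.

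Summits were placed with Python 3.11.15, pandas 2.3.3 and numpy 2.4.6 on GENCODE vM21. The 14-letter core CTCF motif was searched on both strands wholly within 50 bp of summits, a search tested on simulated sequences. The 21 peaks on unplaced scaffolds were left out of shares. No test was made, with 1 group. The genes, lists and rules were chosen with earlier results of these data known. Named are the 9 members, genes holding or starting within 1 kb of a named member peak, and the 3 strongest genes of each list. Alternatives were other lists, each replicate alone, a stricter signal, other promoter windows, flanks, starts, summit distances and mismatch limits.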

Additional observations from a re-analysis of the deposited data

How the results depend on the processing

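Leaving out replicate 1 gave 5 members with a promoter peak and 31 of the 67 list genes (46.3%), beside 31.7% of protein-coding genes. Leaving out replicate 2 gave 7 members and 43 list genes (64.2%), beside 39.4%. With both there were 6 members and 37 list genes, beside 35.2%. The windows held 44 to 52 peaks without a replicate (47 with both). The median relative signal was then 0.716 (replicate 2, all 9 members) to 1.27 (replicate 1, the 8 members other than E2f4). It was 0.925 over the 8 members with a peak in both replicates. The list count was 14 with peaks at or above the median signal (20.9%, beside 18.0% of protein-coding genes), 56 with a promoter window of 5 kb (83.6%, beside 54.1%) and 63 in the pooled list of all peaks (94.0%, beside 71.0%), and with this list all 9 members had a promoter peak. Members with a promoter peak numbered 4 with peaks at or above the median signal (beside 18.0%) and 8 with the 5 kb promoter window (beside 54.1%). Peaks at or above the median signal numbered 25 in the windows, and a flank of 50 kb took in 88. Searching the full replicate lists raised the members with support in both from 5 to 8. Motif matches at the promoter or nearest peak numbered 3 with at most 2 mismatches, 1 with at most 1 and 8 with at most 3. Using protein-coding transcripts alone gave 5 members, beside 31.5% of protein-coding genes. This setting and the pooled list were chosen after seeing the data. Without a replicate, the relative signal of a gene is the value of the other replicate, printed with each gene. With 1 group there were no conditions to pair. Peaks compared with each other were measured in the same 2 libraries, and no paired test of them was made. Read depth is unknown, so a missing peak is not a measured absence.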
